A study of Mus musculus with 16 samples.

Results

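Alternative splicing and alternative polyadenylation give many genes more than one 3′-UTR, and 1117 of the 14925 genes in these RNA-immunoprecipitation and sequencing (RIP-seq) data had a 3′-UTR region with a predicted cytoplasmic polyadenylation element (CPE) and another, separate region without a prediction. A gene was taken when at least one of its annotated 3′-UTR regions carried a CPE prediction, at least one did not, and the coordinates of these regions did not overlap. For each gene and each class the region with the most reads over the 8 libraries was used. Where these overlapped each other, which was the case for 327 genes, the most-read separate pair was used. Both regions of a gene were measured in the same libraries, so that their comparison within a gene does not depend on how libraries are scaled to each other.

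CPEs are short U-rich motifs near the poly(A) signal of an mRNA that are bound by the CPEB proteins, which repress or activate the translation of the mRNA and change its poly(A) tail and its stability. CPEB4 is a member of this family. Alternative poly(A) sites and alternative last exons change which motifs an mRNA of a gene carries. Macrophages were studied here, innate immune cells that respond to lipopolysaccharide (LPS) from the outer membrane of Gram-negative bacteria.

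Bone marrow-derived macrophages (BMDMs) were grown from femurs of adult mice of the strain C57BL/6J 129 with L-cell conditioned medium, a source of the growth factor M-CSF. The sample titles carry the number 76 for wildtype (WT) and 73 for CPEB4 KO (Cpeb4 -/-, a total rather than a myeloid knockout). What these numbers stand for is not stated. Cells of each genotype were left untreated or received LPS at 10 ng/ml for 9 h. RNA bound by an anti-CPEB4 antibody after formaldehyde crosslinking (RIP) and lysate RNA (Input, depleted of rRNA) were sequenced, giving 1 library per genotype, treatment and assay, each on lanes 7 and 8. No difference reported here therefore has a replicate check, and genotype cannot be told apart from what the title numbers stand for. Intervals of 95% come from read counts and cover counting error only.

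The libraries held 467696 to 2492300 3′-UTR reads, fewest in the untreated KO RIP. The 3′-UTR reads came to 27.5% and 32.1% of all reads of the KO RIPs, 49.3% and 70.7% of those of the WT RIPs and 46.9% to 51.5% of those of the Inputs. All 8 macrophage markers (among them Adgre1, Csf1r and Cd68) had at least 10 reads in the Inputs, at a summed 2539 to 3557 CPM (reads relative to all 3′-UTR reads of a library). Summed markers of T cells came to at most 9.05 CPM, and those of B cells, neutrophils, fibroblasts and dendritic cells to at most 1.05. Of these last sets, only 2 of 4 B-cell, 1 of 4 neutrophil, 3 of 4 fibroblast and 2 of 3 dendritic-cell markers had a region. Cpeb4 itself had 130 and 136 CPM in the WT Inputs and 52.0 and 52.6 in the KO Inputs. In the RIPs it had 836 and 770 in WT and 257 and 367 in KO. The sources do not say which part of the gene was deleted, and reads on its 3′-UTR need not report on it.

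CPE motifs of regions with a prediction are shown here for genes described further on. Each line gives the last CPE that ends before the poly(A) signal hexamer (AATAAA or ATTAAA) of the CPE region. It is in DNA letters from the GRCm38 genome and read 5′ to 3′ along the mRNA. Capitals mark this CPE and, where it falls within the same window, the hexamer. In Wsb1 a further CPE, TTTTAAT, overlaps the hexamer and is not marked as a CPE. The first 5 belong to genes in which the CPE region was relatively higher in the WT RIP with LPS.
Wsb1: TTTTATccctgttgagtttttttaATTAAA
Il2rg: atggtccttctcTTTTATaggattctccct
Myh9: ccgcacccctttTTTTATataatacaagtg
Apaf1: ttttatatcatgTTTTATgtactttgaaga
Zeb2: tttagacaatatTTTTATtggagagttttc
The last 2 belong to genes in which the CPE-free region was relatively higher.
Rnf145: caaagtttgatTTTTAATttttaaaatttc
Pld2: tgtgtatgaataTTTTATctgtatacacgc
The sites lie at chr11:79239399-79239428 (Wsb1), chrX:101264452-101264481 (Il2rg), chr15:77760677-77760706 (Myh9), chr10:90989420-90989449 (Apaf1) and chr2:44983774-44983803 (Zeb2), all on the minus strand. Those of Rnf145 and Pld2 lie on the plus strand at chr11:44554252-44554281 and chr11:70546056-70546085. The distance from the end of the marked CPE to the hexamer was 18 bases in Wsb1, 55 in Il2rg, 80 in Myh9, 91 in Apaf1 and 126 in Zeb2. It was 684 bases in Rnf145 and 301 in Pld2. The distance did not divide the sets, since Arid3b, of the first, had 1187 bases, and Chrac1, Srsf10 and Wdr37, of the second, had 27, 85 and 107.

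The regions of the 2 classes differed in more than their CPEs. Over the 1117 genes the CPE regions had a median length of 1600 bases (quartiles 710 and 2676) and the CPE-free regions one of 208 bases (quartiles 88 and 802). CPE regions were 59.0% A and U (median) and CPE-free regions 54.5%. A hexamer stood near the end of 77.8% of the CPE regions but of 31.0% of the CPE-free ones. A CPE motif alone did not give a prediction, since 31.3% of the CPE-free regions held one, so that CPE-free here means without a prediction. A hexamer near the end was not needed for a prediction, since only 77.8% of the CPE regions had it. CPEs were counted on the mRNA strand only, as the consensus motifs TTTTAT or TTTTAAT or as the other forms TTTTACT or TTTTCAT or TTTTAAAT or TTTTAAGT in DNA letters, and 39.0% of all 22600 regions without a prediction held one. CPE motifs occurred at 2.76 per kb in the CPE regions and 1.19 per kb in the CPE-free regions, and the AU-rich AUUUA motif at 2.08 and 1.73 per kb.

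Many CPE-free regions were not the end of a full-length coding mRNA. In GENCODE M21, 481 of the 1117 belonged to transcripts annotated as targets of nonsense-mediated decay (NMD), in which a premature stop codon turns downstream coding exons into 3′-UTR, against 60 of the CPE regions. Bases that are coding in another transcript were found in 516 CPE-free and 185 CPE regions. The CPE region lay downstream of the CPE-free region, in the direction of transcription, in 824 genes (73.8%) and upstream in 293.

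The CPE regions of 823 genes and the CPE-free regions of 490 had at least 10 reads over the 4 Inputs, and 378 genes reached this in both. All other members were left out of the ratios. In the 378 genes the CPE-free regions had a median of 38 Input reads and the CPE regions one of 199.5, so that most of the counting error lay in the CPE-free region.

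The question of the comparison is whether the CPE region was recovered with the antibody more than the CPE-free region of the same gene. The value used is the log2 ratio of WT over KO RIP reads of the CPE region minus that of the CPE-free region. It was above 0 in 264 of 378 genes without treatment (69.8%), with a median of 0.71 (quartiles -0.17 and 1.53). With LPS it was above 0 in 273 genes (72.2%), with a median of 0.69 (quartiles -0.10 and 1.43). The Inputs were shifted little, and the other way. Their medians were -0.12 untreated (quartiles -0.61 and 0.47) and -0.09 with LPS (quartiles -0.50 and 0.43). In 292 and 315 genes both regions had over 3 reads in at least 1 RIP of the treatment, and setting every count of 0 in these to 3 reads gave medians of 0.77 and 0.76.

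**Figure D1:**
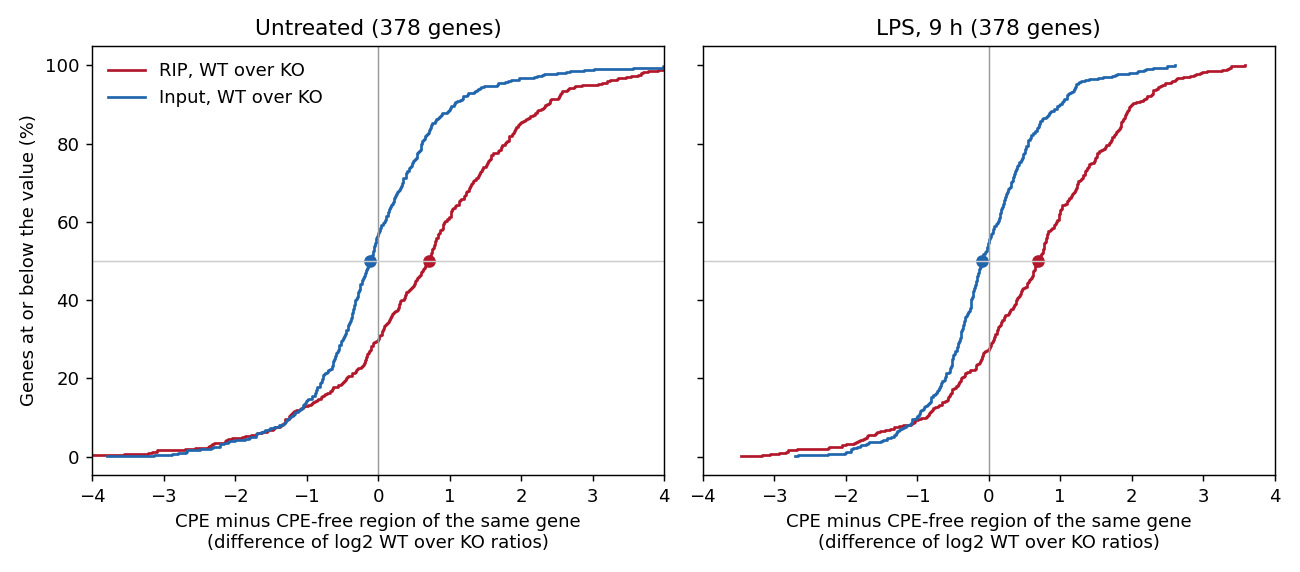
Share of the 378 genes (y axis, %) at or below a given difference between the CPE and the CPE-free region of the same gene (x axis, log2 WT over KO ratio of the CPE region minus that of the CPE-free region), for the RIPs in red and the Inputs in blue, with the medians as dots. The RIP curves lie to the right of the Input curves at the median, with values of 0.71 and 0.69 against -0.12 and -0.09, while a few values beyond the axis are not drawn.

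A gene was called when its difference passed 2-fold and its 95% counting interval left out 0. In the untreated RIPs the CPE region was called higher in 64 genes and the CPE-free region in 14. With LPS the numbers were 92 and 14. These are 16.9% and 24.3% of the members with the CPE region higher, and 3.70% with the CPE-free region higher in each treatment. For the background, 550 other genes with a pair of separate CPE-free regions were treated in the same way. These were not members, but a CPE region that overlaps their CPE-free regions was not excluded. The longer region was called higher in 7.82% of them untreated and 10.7% with LPS, and the shorter one in 2.18% and 3.82%, or 10% and 14.5% in either direction. The members' share with the CPE region higher was thus above the background, and that with the CPE-free region higher was near it with LPS. The median standard error from the counts was, however, larger in the 550 genes than in the members in both treatments. A difference of a given size is therefore called less readily in the 550 genes, and the shares were not matched for this. In 7 of the 64 and 1 of the 92 genes one region had no more than 3 reads in both RIPs. In the Inputs 5 and 7 genes were called untreated and 7 and 7 with LPS. These are 1.32% and 1.85%, and 1.85% in each direction, beside 0.727% and 1.64%, and 1.45% and 0.909%, of the 550 other genes (longer and shorter region higher).

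Which of the regions lay off 0 depended on the scaling, unlike the difference between them. Scaled to the 3′-UTR totals, the median WT over KO RIP log2 ratio of the CPE regions was 0.09 untreated and 0.10 with LPS, and that of the CPE-free regions was -0.57 and -0.62. Taken region by region, with all members whose region had 10 Input reads, 68 of 823 CPE regions (8.26%) were called higher in the untreated WT RIP and 42 (5.10%) in the KO RIP. Of 490 CPE-free regions 7 (1.43%) were called higher in WT and 78 (15.9%) in KO. Among all 15682 distinct regions the shares were 5.18% and 9.02%. With LPS, 8.75% of the CPE regions were called higher in WT and 5.59% in KO, 1.43% and 21% of the CPE-free regions, and 6.21% and 13.6% of all regions. On the library totals all WT over KO ratios were higher by 0.84 (untreated) and 1.14 (LPS), which puts the medians of both classes above 0. On these totals 40.2% and 60.5% of the CPE regions and 11.6% and 24.3% of the CPE-free regions were called higher in WT. The shift raises the ratio of every region, and the share of all regions called on this scaling is not given.

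The medians differed more by the order of the regions along the transcript than by any other single feature given further on. In the 287 tested genes with the CPE region downstream, the within-gene difference had a median of 0.81 untreated (quartiles 0.05 and 1.57) and 0.85 with LPS (quartiles 0.16 and 1.58), and it was above 0 in 76.0% and 81.2% of them. In the 91 genes with the CPE region upstream it had a median of 0.02 (quartiles -1.01 and 1.04) and -0.18 (quartiles -1.01 and 0.59), and was above 0 in 50.5% and 44.0%. Of the 287 genes, 56 were called with the CPE region higher and 2 with the CPE-free region higher untreated, and 80 and 2 with LPS. Of the 91 genes, 8 and 12 were called untreated and 12 and 12 with LPS. The split was made after the values had been seen, and the upstream group is small. With at least 50 Input reads in each region (31 genes) its medians were 0.37 untreated and 0.15 with LPS.

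Pairs of CPE-free regions showed a difference by position as well. In the 550 genes with a pair of separate CPE-free regions the downstream minus the upstream region had a median of 0.37 untreated (quartiles -0.47 and 1.22) and 0.47 with LPS (quartiles -0.28 and 1.30). The downstream region was called higher in 55 genes (10%) and 69 genes (12.5%), and the upstream region in 0 and 11 (2%). By these medians, the 287 genes with the CPE region downstream lay above the 550 genes. In the 91 genes with it upstream, the upstream minus the downstream region had medians of 0.02 and -0.18. The share of the 287 genes called with the downstream region higher was 19.5% untreated and 27.9% with LPS. In the 91 genes the upstream region, with the CPE, was called higher in 8.79% and 13.2%, beside 0% and 2% of the 550 genes. Their downstream region was called higher in 13.2% in each treatment, beside 10% and 12.5%. Whether position, the CPE or a feature that goes with either sets these values was not tested.

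**Figure D2:**
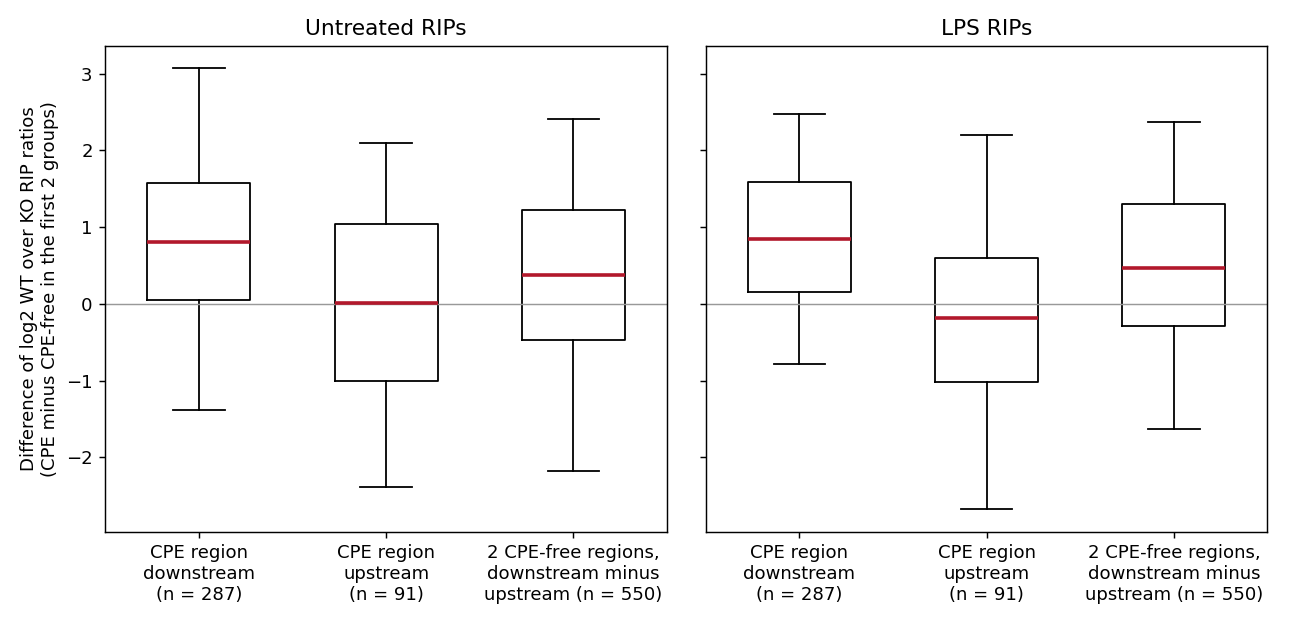
Within-gene difference of the log2 WT over KO RIP ratio (y axis) for the 287 genes with the CPE region downstream, the 91 genes with it upstream, both as CPE minus CPE-free, and for 550 genes with a pair of CPE-free regions as downstream minus upstream, untreated (left) and with LPS (right). Red lines are medians, boxes quartiles and whiskers the 5th and 95th percentiles. The first group has the highest median (0.81 and 0.85), and the second lies near 0 (0.02 and -0.18).

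Where the CPE-free region overlapped a coding exon (229 genes) the median difference was 0.79 untreated and 0.80 with LPS, and where it did not (149 genes) it was 0.37 and 0.27. Among the latter, order again went with the value. The 79 such genes with the CPE region downstream had medians of 0.78 and 0.98, and the 70 with it upstream -0.10 and -0.34. In the 97 genes whose CPE-free region had a hexamer near its end, the medians were 0.15 and 0.21. Of these, the 35 with the CPE region downstream had 0.96 and 1.0, and the 62 with it upstream -0.15 and -0.16. Genes whose CPE-free region came from an NMD transcript (195) had 0.85 and 0.82, and those with a protein-coding transcript (168) had 0.47 and 0.32.

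The content of the CPE region itself separated the genes less. CPE regions with an activation prediction (185 genes) had medians of 0.68 and 0.80, and those with a repression prediction alone (193) had 0.72 and 0.48. With up to 2 CPE motifs in the CPE region (113 genes) the medians were 0.63 and 0.72, with 3 to 5 (127) they were 0.78 and 0.56, and with 6 or more (138) 0.51 and 0.76. There was no steady rise with the number of motifs. Genes whose CPE-free region held no CPE motif (267) had 0.73 and 0.77 and those with a motif in it (111) had 0.51 and 0.27. By base composition, the 94 genes whose CPE region was no richer in A and U had 0.43 and 0.17, and the 89 whose CPE region was richer by over 10 percentage points had 0.81 and 0.83. The CPE region was the longer one in 331 genes, with medians of 0.66 and 0.68, and the shorter one in 46, with 1.04 and 0.68.

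The untreated and the LPS RIPs share no library, although they share the antibody and, within a genotype, the number in the sample titles. Across the 378 genes the differences of the 2 treatments correlated with a Pearson r of 0.38 and a Spearman rho of 0.34, as a description over genes, which are not independent replicates. For the Inputs the values were 0.05 and 0.07. In the 58 genes with at least 10 reads of each region in each RIP, r was 0.74 and rho 0.67, beside 0.21 and 0.29 for their Inputs. Their RIP medians were 0.70 untreated and 0.65 with LPS. The difference was above 0 in both treatments in 211 genes and below 0 in both in 51. The CPE region was called higher in both in 29 genes, 45.3% of the untreated and 31.5% of the LPS calls, and the CPE-free region in 8. No gene was called in opposite directions. The matching overlap was not counted in the other genes with a pair of separate CPE-free regions. Whether it is particular to the members was therefore not tested.

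**Figure D3:**
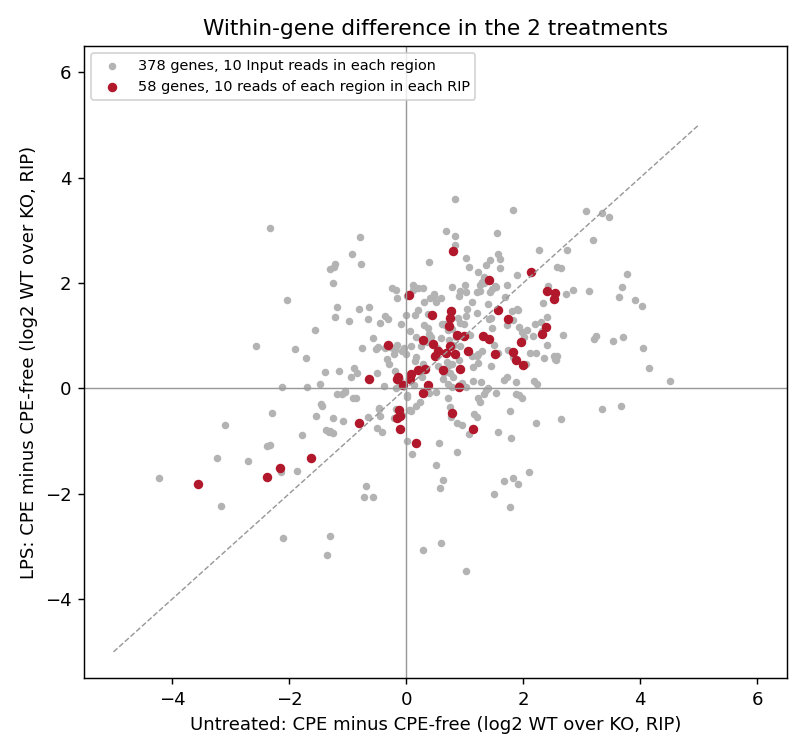
Within-gene difference of the log2 WT over KO RIP ratio, CPE minus CPE-free, untreated (x axis) against LPS (y axis), 1 dot per gene. Grey dots are the 378 genes and red dots the 58 with at least 10 reads of each region in each RIP. The dashed line marks equal values, and the red dots lie nearer to it, with r = 0.74 against 0.38 for all genes.

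Genes were ranked on the LPS RIPs among 142 members with at least 20 reads of each region in the Inputs and in the LPS RIPs, so their LPS values are a description and the untreated values are independent of the choice. In 9 genes with the CPE region most clearly higher (Zeb2, Arid3b, Rprd1b, Cux1, Birc3, Myh9, Apaf1, Wsb1 and Il2rg) the LPS difference ran from 1.81 to 3.40. Their untreated difference was above 0 in all 9, from 0.79 to 2.57 with a median of 1.90, and its interval left out 0 in 6. The CPE region lay downstream in 7 of the 9. Scaled to the 3′-UTR totals, their CPE regions had log2 ratios of WT to KO from -0.12 to 1.39, and their CPE-free regions had ratios below 0 in all 9 genes in both treatments, although on the library totals some of these lie above 0.

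Cux1, a homeodomain transcription factor, had its CPE region at chr5:136266410-136274790, on the minus strand, with 22 CPE motifs, upstream of a CPE-free region at chr5:136248135-136248910 that held 1 motif. The CPE region took 94.3% of the reads of both regions in the untreated WT RIP, 78.8% in the KO RIP, 94.6% and 78.3% with LPS, and 66.9%, 73.9%, 62.2% and 68.6% in the WT and KO Inputs, untreated and with LPS. Both WT RIPs were above the KO RIPs and above all 4 Inputs. Without treatment the difference was 2.13 (95% interval 1.37 to 2.89), and LPS gave 2.2 (1.34 to 3.07). The untreated Inputs differed the other way, by -0.49 (-0.91 to -0.07). In Cux1 the region with the CPEs was the upstream one.

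Wsb1, a substrate receptor of a ubiquitin ligase, had a CPE region at chr11:79239372-79240302 with 5 motifs and a CPE-free region of 288 bases from an NMD transcript, of which 21 bases are coding elsewhere. The CPE region took 93.2% of the reads in the untreated WT RIP against 69.8% in the KO RIP, 90.8% against 73.3% with LPS, and 61.8% to 71.0% in the Inputs. The difference was 2.54 (1.69 to 3.38) untreated and 1.81 (1.12 to 2.50) with LPS, with the WT RIPs above every other library. The Inputs differed by -0.43 (-1.70 to 0.84) and 0.55 (-0.46 to 1.56).

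Il2rg, the receptor chain shared by several interleukin receptors, had 48 and 5 reads on its CPE region in the untreated WT and KO RIPs and 8 and 5 on its CPE-free region, a coding exon of 100 bases 86 bases upstream. With LPS the reads were 186 and 35 on the CPE region and 36 and 27 on the other. The differences were 2.42 (0.41 to 4.43) and 1.95 (1.07 to 2.82), and the CPE region held 85.7% and 83.8% of the reads in the WT RIPs, 50% and 56.5% in the KO RIPs and 63.7% to 74.0% in the Inputs. Here the KO RIPs were below all Inputs and the WT RIPs above them.

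Zeb2, a zinc-finger transcription factor, had 1034 and 315 reads on its 4939-base CPE region in the untreated WT and KO RIPs and 1597 and 440 with LPS. Its CPE-free region lies 107010 bases upstream and had 96 and 51 reads untreated and 32 and 56 with LPS. The difference was 0.79 (0.27 to 1.31) untreated and 2.60 (1.97 to 3.24) with LPS, the value by which it was chosen. The interval of the LPS Inputs also left out 0, in the other direction, at -0.78 (-1.56 to -0.00).

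Myh9, the heavy chain of non-muscle myosin, had 14 and 9 reads on its CPE-free coding exon of 107 bases in the untreated RIPs and 16 and 17 with LPS, against 657 and 108, and 791 and 176, on its CPE region. The difference was 1.90 (0.69 to 3.11) and 2.15 (1.17 to 3.13), while the Inputs gave -0.72 (-1.5 to 0.05) and 0.65 (0.03 to 1.27). Apaf1, the core of the apoptosome, had a difference of 1.37 (-0.09 to 2.83) and 2.34 (1.17 to 3.51), with 13 and 6, and 9 and 14, reads on its CPE-free region. Birc3, a ubiquitin ligase of TNF and NF-κB signalling, had 2.57 (0.72 to 4.42) and 2.30 (1.19 to 3.41). Birc3 had 2 and 3 reads on its CPE-free region in the untreated Inputs, and these give no precise Input ratio.

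The remaining 2 genes of this set had an untreated interval that held 0, as had Apaf1. Arid3b, a DNA-binding protein of the ARID family, had 1.83 (-0.05 to 3.71) untreated and 3.40 (1.86 to 4.93) with LPS, and its CPE region held 93.3% of the reads in the LPS WT RIP and 48.6% in the KO RIP. Rprd1b, which binds the C-terminal domain of RNA polymerase II, had 1.61 (-0.40 to 3.62) and 2.46 (1.5 to 3.42), with the CPE region upstream as in Cux1.

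**Figure D4:**
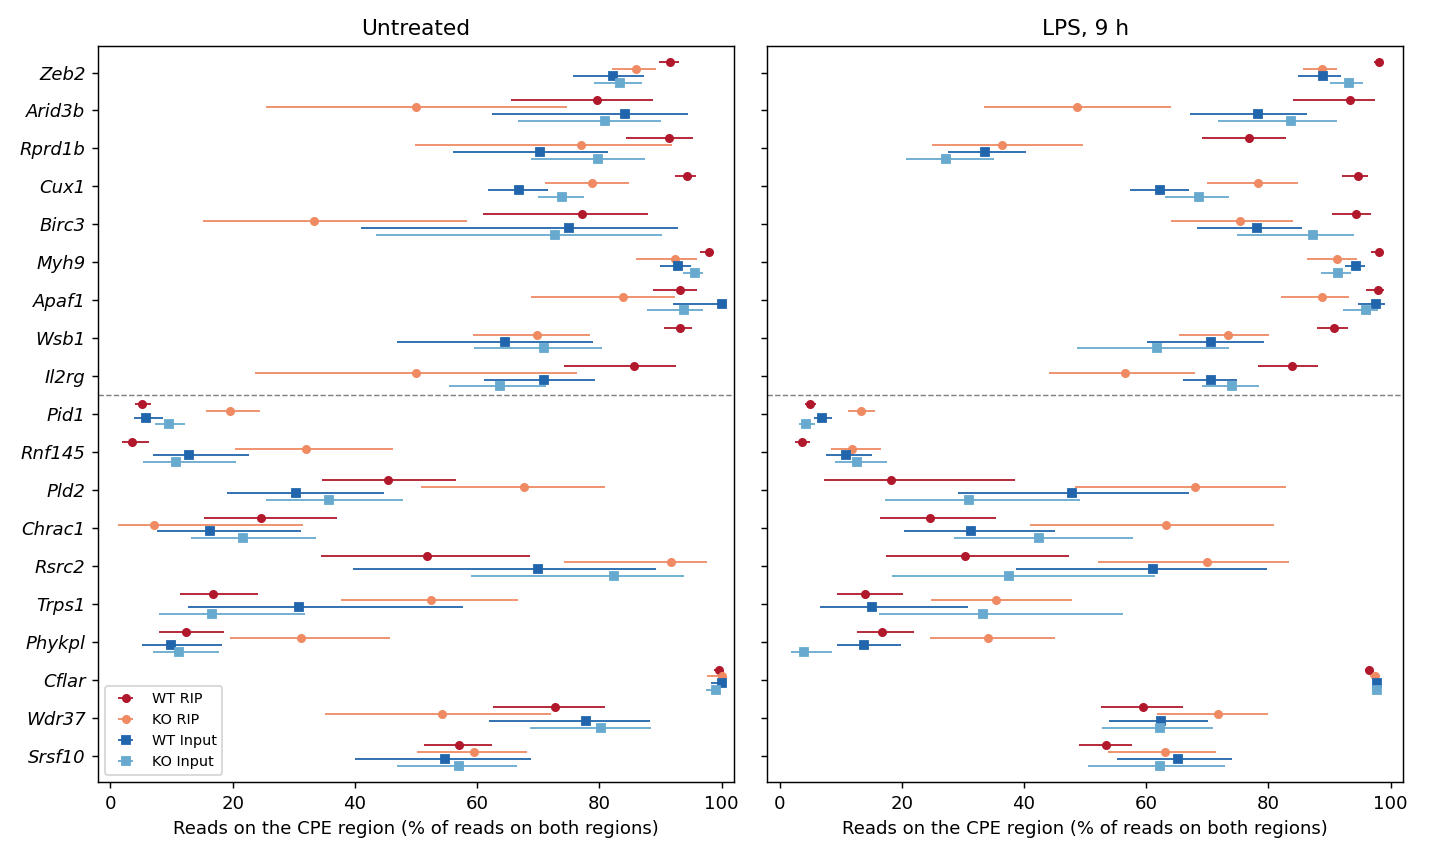
Reads on the CPE region as a percentage of the reads on both regions (x axis) in each of the 8 libraries, with 95% Wilson intervals, for the 9 genes with the CPE region highest (above the dashed line) and the 10 with the CPE-free region highest (below it) in the LPS RIPs. Circles are RIPs (WT dark, KO light red) and squares Inputs (WT dark, KO light blue). In Cux1 and Wsb1 the WT RIPs lie above the other libraries, in Pid1 the KO RIPs do, and in Rnf145 the WT RIPs lie below the others (3.50% and 3.61%).

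The 10 genes at the other end were Pid1, Rnf145, Pld2, Chrac1, Rsrc2, Trps1, Phykpl, Cflar, Wdr37 and Srsf10, with LPS differences of -2.80 to -0.52. Untreated, 8 of the 10 had a value below 0 and in 6 the interval left out 0 on that side. The CPE region lay upstream in 6 of them. A hexamer stood near the end of the CPE-free region in 6, and 8 of the CPE-free regions held a CPE motif.

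Pid1, which encodes an adaptor with a phosphotyrosine interaction domain, had 60 and 60 reads on its CPE region in the untreated WT and KO RIPs and 122 and 118 with LPS. Its CPE-free region, which lies 119098 bases downstream and holds 3 CPE motifs, had 1105 and 246 reads untreated and 2308 and 772 with LPS. The difference was -2.15 (-2.70 to -1.60) and -1.52 (-1.90 to -1.14). The CPE region took 19.6% and 13.3% of the reads in the KO RIPs and 4.38% to 9.53% in the other 6 libraries, so that the KO RIPs stood apart. The Inputs differed by -0.77 (-1.51 to -0.04) untreated and 0.70 (0.16 to 1.24) with LPS, in opposite directions.

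Rnf145, a ubiquitin ligase of the endoplasmic reticulum, had the same layout, with its CPE region (11 motifs) 9308 bases upstream of a CPE-free region with 1 motif. The CPE region took 31.9% and 11.9% of the reads in the KO RIPs, 3.50% and 3.61% in the WT RIPs and 10.8% to 12.9% in the Inputs. The difference was -3.55 (-4.78 to -2.32) untreated and -1.80 (-2.54 to -1.07) with LPS. Here the WT RIPs lay below all other libraries.

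Trps1, a zinc-finger transcription factor, had 22 reads on its CPE region in each of the 4 RIPs and 109, 20, 136 and 40 on the CPE-free region in the untreated WT, untreated KO, LPS WT and LPS KO RIPs, with differences of -2.38 (-3.46 to -1.30) and -1.69 (-2.66 to -0.72). Its CPE-free region held 6 CPE motifs, more than the 4 of its CPE region. Pld2, a phospholipase D, had -1.30 (-2.51 to -0.09) and -2.80 (-4.58 to -1.03). Rsrc2 had -3.17 (-5.36 to -0.97) and -2.24 (-3.72 to -0.76), and Phykpl, an enzyme of hydroxylysine breakdown, -1.62 (-2.76 to -0.49) and -1.33 (-2.15 to -0.51). The CPE-free region of Phykpl overlaps a region of another gene symbol, and its LPS Inputs also differed, at 1.76 (0.51 to 3.01).

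The last 4 of this set had no interval on this side of 0 without treatment. Chrac1, a histone-fold protein of chromatin remodelling complexes, had 1.78 (-0.92 to 4.48) untreated and -2.25 (-3.73 to -0.77) with LPS, with a CPE-free region that overlaps another symbol, and Wdr37 had 1.14 (-0.18 to 2.46) and -0.78 (-1.54 to -0.01). Srsf10, a splicing factor, had -0.15 (-0.79 to 0.49) and -0.57 (-1.18 to 0.04), so that neither interval left out 0. Cflar, an inhibitor of caspase 8, had 4 and 0 reads on its CPE-free region untreated and 174 and 41 with LPS, beside 4674 and 1585 on the CPE region, with a difference of -0.52 (-1.01 to -0.02) with LPS.

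Among the 5 genes with the most reads in the less-read region, Nrp2 was the one called, without treatment. It encodes a co-receptor of semaphorins and VEGF. Its CPE region (3 motifs, upstream) had 426 and 32 reads in the untreated WT and KO RIPs and 893 and 160 with LPS, and its CPE-free region (5 motifs and a hexamer near its end) 405 and 109, and 1595 and 464. The difference was 1.83 (1.23 to 2.43) untreated and 0.70 (0.41 to 0.98) with LPS, and the intervals did not overlap. In the Inputs it was 0.17 (-0.17 to 0.51) and -0.16 (-0.37 to 0.05).

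Surf4, a cargo receptor of the endoplasmic reticulum, had 0.54 (-0.32 to 1.4) and 0.70 (0.29 to 1.12), and Tnfrsf1b, the TNF receptor 2, had 0.64 (-0.26 to 1.54) and 0.35 (0.04 to 0.67), with -0.61 (-1.18 to -0.04) in the untreated Inputs. Erp29, an endoplasmic reticulum chaperone, had -0.06 (-0.60 to 0.48) and 0.07 (-0.48 to 0.62). Maf, a transcription factor of macrophages, had -0.13 (-0.57 to 0.31) and 0.21 (-0.18 to 0.60), with 12 motifs in its CPE region and 2 in its CPE-free region, and -0.56 (-0.98 to -0.14) and -0.45 (-0.90 to -0.01) in the Inputs. The intervals of Erp29 and Maf thus left out a difference of 2-fold in either direction in both treatments. The CPE regions of Erp29 and Surf4 overlap a region of another symbol.

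Of the 37 splicing factors listed, 12 were members and 9 were tested. The CPE region was called higher in 3 of the 9 untreated and in 1 with LPS, and the CPE-free region in 1 each time, beside 16.9% and 24.3% (CPE region) and 3.70% (CPE-free region) of all 378 genes. The medians were 0.85 and 0.48, beside 0.71 and 0.69. Hnrnpk was the gene with the CPE-free region higher. It had 7 and 8 reads on its CPE region untreated and 4 and 11 with LPS, against 583 and 138, and 792 and 223, on its CPE-free region, which held 4 CPE motifs. The difference was -2.10 (-3.52 to -0.69) and -2.83 (-4.29 to -1.38). Rbm39, which couples transcription to splicing, had 1.57 (0.29 to 2.86) and 0.67 (-0.39 to 1.73), and its Inputs went in opposite directions, with 6 and 6 reads on the CPE region and 0 and 10 on the CPE-free region in WT and KO untreated, and a difference of -2.0 (-3.73 to -0.27) with LPS. Ptbp3, a polypyrimidine tract-binding protein, had 0.85 (-0.58 to 2.28) and 0.98 (0.22 to 1.74). Celf2, which regulates splicing and mRNA decay, had -0.08 (-1.56 to 1.4) and 0.05 (-1.55 to 1.66), and Srsf11 had 1.23 (-0.74 to 3.21) and 0.48 (-1.63 to 2.59). In Ptbp1 the CPE-free region had 3 reads or fewer in each RIP, and no ratio is given.

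Among 40 genes of the poly(A) and CPE machinery, 9 were members (Cnot3, Cnot4, Cpeb3, Cpsf4, Cpsf6, Cstf2, Fip1l1, Papola and Pum2) and 2 were tested. Cnot3, a subunit of the CCR4-NOT deadenylase, had 1.72 (-0.07 to 3.52) untreated and 1.97 (0.42 to 3.52) with LPS. Cnot4, a ubiquitin ligase linked to the same complex, had 1.08 (-0.50 to 2.65) and -0.87 (-2.34 to 0.60). Of 14 ARE-binding proteins 3 were members (Hnrnpd, Hnrnpdl and Tia1) and Hnrnpdl was tested. It had 1.99 untreated, where it was called, and 0.44 with LPS, where it was not. Of 60 genes of LPS signalling and its negative feedback, Map2k4 was the 1 member, with -0.74 untreated and 0.77 with LPS, and it was not called.

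The RIPs were also set against the Input of the same genotype and treatment. In WT the CPE minus CPE-free difference of the log2 RIP over Input ratio had a median of 0.66 untreated, with 86 genes called with the CPE region higher and 13 with the CPE-free region higher (22.8% and 3.44%, beside 10.9% and 6.36% of the 550 other genes for the longer and the shorter region). With LPS it was 0.74, with 108 and 18 genes called (28.6% and 4.76%, beside 16% and 7.09%). In KO the medians were 0.03 and 0.01, with 28 and 40 genes called untreated (7.41% and 10.6%, beside 5.45% and 8.91%) and 34 and 38 with LPS (8.99% and 10.1%, beside 8.36% and 10.7%).

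By position, the KO RIPs were not even. In the genes with the CPE region upstream the KO RIP over Input difference had medians of 0.69 untreated and 0.49 with LPS, and in those with it downstream -0.22 and -0.05. The WT RIPs gave 0.66 and 0.24 with the CPE region upstream and 0.66 and 0.89 with it downstream. In the untreated RIPs, upstream CPE regions thus stood about as high over Input in KO as in WT by these medians.

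The peaks that the authors called in each RIP against its Input lay on 85 of the 378 CPE regions (22.5%) and 14 of the CPE-free regions (3.70%) in the untreated WT RIP, and on 6.5% of all regions. With LPS they lay on 160 (42.3%) and 46 (12.2%), and on 14.5% of all. The shares of all regions had no read minimum. Without one, the 1117 members had peaks on 15.4% of CPE and 2.33% of CPE-free regions untreated, and 28.8% and 7.07% with LPS. A peak on the CPE region alone was found in 77 genes untreated and 126 with LPS, and on the CPE-free region alone in 6 and 12. The KO RIPs had peaks on 10 CPE regions and 7 CPE-free regions in each treatment, with 1.04% and 1.14% of all regions. Longer regions have more room for a peak. In the 47 genes whose CPE region was not the longer one, the WT RIP peaks lay on 6 CPE and 3 CPE-free regions untreated and on 12 and 7 with LPS.

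The Inputs give the balance of reads between the regions in bulk RNA, with and without LPS. It is no direct measure of 3′-end choice, since 229 of the 378 CPE-free regions overlap coding exons of other transcripts and a change in stability cannot be told apart from one in processing. The LPS over untreated difference had a median of -0.04 in WT (12 genes called with the CPE region higher and 14 with the CPE-free region higher, 3.17% and 3.70%, beside 2.36% and 2.91% of the 550 other genes) and of -0.08 in KO (10 and 25, 2.65% and 6.61%, beside 2.18% and 4%). The calls were near the background in WT. Genes were chosen for their change in WT, which is therefore a description, and set against KO, whose values had no part in the choice.

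Sept8, a septin, changed by 2.27 (0.88 to 3.65) in WT and 1.86 (0.59 to 3.13) in KO, with 21 and 32 Input reads on its CPE-free region untreated and 4 and 5 with LPS. Stard5, a lipid transfer protein, had 2.39 (1.26 to 3.51) and 1.98 (0.76 to 3.21), and Csnk1a1, casein kinase 1 alpha, 1.67 (0.64 to 2.70) and 1.63 (0.37 to 2.90). Lcp2, an adaptor of immune receptor signalling, had 2.75 (0.95 to 4.54) in WT and 1.22 (-1.21 to 3.64) in KO, from 4 and 1 untreated reads on its CPE-free region. In 3 of these 4 genes the KO interval also left out 0 on the same side.

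In the other direction, Rprd1b had a lower share of reads on its CPE region with LPS. That region took 70.2% of the Input reads untreated and 33.7% with LPS in WT, and 79.7% and 27.3% in KO, a change of -2.16 (-3.14 to -1.19) and -3.29 (-4.27 to -2.32). Zfp652 changed by -2.42 (-4.10 to -0.74) and -2.71 (-4.68 to -0.74). Its CPE-free region had 60 bases, 45 of them coding in other transcripts. That region had only 3 and 12 Input reads in WT, untreated and with LPS, and 2 and 6 in KO. Atxn7l1 changed by -1.89 (-3.05 to -0.73) in WT and -0.96 (-1.92 to -0.00) in KO. Ddx5, an RNA helicase, had -1.43 (-2.41 to -0.44) in WT and -0.13 (-1.07 to 0.82) in KO. Rbm39 had the lowest upper bound of all by the same rule, but no fold is given, since its CPE-free region had 0 reads in the untreated WT Input and 22 with LPS, against 10 and 10 in KO. The CPE-free regions of Ddx5 and Rbm39 consist of coding bases of other transcripts.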

How the data were processed

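Read counts over annotated 3′-UTR regions were taken as deposited. The authors aligned reads to mm10 with Bowtie2 2.2.2 (version per the submitters' processing notes), removed duplicate reads, and summed both lanes of a library in one count column. The deposited RPKM values served to recover library totals. The deposited score is the authors' highest MACS 1.4.2 peak score over a region, with 0 for no peak. Columns with the authors' fold changes and p-values were not used. Whether counting used the strand is not stated, so antisense and overlapping genes cannot be told apart, and isoform regions share reads.

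Of 31117 rows, 495 without a symbol were left out, and 30622 remained. Log2 ratios were computed after adding reads in proportion to each library's 3′-UTR total (1 on average, 0.336 to 1.79), with standard errors from the counts. Genes needed 10 Input reads in each region. A call is a difference past 2-fold whose 95% interval leaves out 0, and no p-value is given, since there is 1 library per group. Sequence features were read from GRCm38 and transcripts from GENCODE M21 (pysam 0.24.0). TMM and the exact test of edgeR 4.0.16 (R 4.3.3) were alternatives, as were Fisher's exact test and a chi-square test, which compare reads of 2 libraries, not genotypes. Scripts were tested on simulated data. Named genes were the 10 highest lower and 10 lowest upper bounds of the LPS RIP difference among members with 20 reads in each region of the Inputs and LPS RIPs, the 5 members with the most reads in the less-read region, members on 4 lists with 20 Input reads in each region, and the 5 highest lower and 5 lowest upper bounds of the WT Input change with LPS. Some results of named genes are not reported here. The members and lists were chosen with earlier results of these data known. Adding reads in proportion to depth, and the split by position, were settled after seeing the data.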

Additional observations from a re-analysis of the deposited data

How the results depend on the processing

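Of 372 recomputed summary values, 293 stayed within the spread of the reported value or within 1.5 times its share, and 79 moved. The RIP medians over all members, those with the CPE region downstream and WT RIP over Input stayed above 0 under every alternative run. With a hexamer near the end of the CPE-free region, however, only 53.6% (untreated) and 57.7% (LPS) of genes had a RIP difference above 0. With neither region in a coding exon this share was 59.3% in each treatment. No named gene that was called changed sign among 156 recomputed values, although Ptbp3 with LPS passed 2-fold (1.01 and 1.03). Medians near 0 (the LPS Inputs, KO RIP over Input, the LPS change of the Inputs, and the CPE region upstream) changed sign under some alternatives. Medians of the untreated and LPS RIP differences became 0.85 and 0.82 with 1 read added in every library (1.01 and 1.09 with the CPE region downstream), a setting chosen after seeing the data, and 0.1 reads gave 1.01 for the CPE region downstream with LPS. Without a read minimum (1117 genes) they were 0.43 and 0.49, with 0.65 and 0.67 for the CPE region downstream, 0.45 and 0.46 for WT RIP over Input, and calls of 8.24% and 1.79% untreated and 11.4% and 1.79% with LPS. With 50 Input reads the untreated median of the downstream genes was 0.67. Where the CPE-free region had a hexamer near its end (97 genes) the RIP medians were 0.15 and 0.21, WT RIP over Input 0.35 and 0.24, KO RIP over Input with LPS -0.13, the LPS Inputs 0.026, the LPS change 0.080 (WT) and 0.13 (KO), the untreated value of the downstream genes 0.96, and calls of the CPE-free region 9.28% and 7.22%. With neither region in a coding exon (118 genes, added after seeing the data) the RIP medians were 0.40 and 0.26, WT RIP over Input with LPS 0.45, the LPS change 0.082 and 0.12, and calls of the CPE-free region 6.78% in each treatment.

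Such calls fell to 1.12% and 1.87% without a CPE motif in the CPE-free region and to 1.08% and 1.62% with an activation prediction, where KO RIP over Input was -0.26 and -0.13. With 10 reads of each region in each RIP (58 genes, added after seeing the data) WT RIP over Input was 0.36 and 0.31, the LPS change in KO 0.052, the LPS value of the downstream genes 0.70, and calls 27.6% (CPE, untreated) and 6.90% (CPE-free, each treatment). With over 3 reads in a RIP, also added then, KO RIP over Input with LPS was -0.13. Fisher's exact test with Benjamini-Hochberg adjustment and 2-fold called 5.56% and 2.12% untreated and 12.2% (CPE) with LPS.

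For single regions, library totals called 40.2% and 0.851% of CPE regions and 11.6% and 3.27% of CPE-free regions (WT and KO higher, untreated), and 60.5%, 0.608%, 24.3% and 1.22% with LPS. TMM, which raised all ratios by 0.23 and 0.34, gave 14.5% (CPE, WT), 2.65% and 10.2% (CPE-free, WT and KO) untreated, and 20.9%, 3.16%, 4.08% and 10.8% with LPS. With LPS, WT-higher calls of CPE and CPE-free regions were 13.7% and 2.86% by median of ratios and 13.5% and 2.24% by the chi-square test, and 2.26% of CPE-free regions with 10 reads in the RIP pair. The share of all regions called is not given for these alternatives. edgeR's exact test at an assumed coefficient of variation of 0.4 called 0% in each class, treatment and direction after adjustment. Counts at an unadjusted p are not given, since each group is 1 library and the variation was assumed. The causes were not tested, apart from the fewer genes each restriction leaves. No paired analysis was possible because each group is 1 library, and no library could be left out for the same reason.

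Depth limits single genes most: a CPE-free region had a median of 38 Input reads, and 33 of 378 had 0 reads in the untreated KO RIP. Bowtie2 does not split reads over introns, which bears on regions of coding exons shorter than a read. The empty prediction covers regions without a hexamer, and annotated pieces of a longer 3′-UTR count as regions of their own.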

Other observations

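The balance of the regions within the RIPs was also compared between treatments. The CPE minus CPE-free difference of LPS over untreated RIP reads had a median of -0.05 in WT (quartiles -0.61 and 0.52). In KO the median was -0.07 (quartiles -0.85 and 0.70). Both medians were small beside the spread over genes.

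In 25 other genes with a pair of separate CPE regions, too few to divide, the longer minus the shorter region had medians of the log2 WT over KO RIP difference of 0.62 untreated and 0.25 with LPS.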
